A study of Mus musculus with 15 samples.

Results

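Genes of the non-collagen extracellular matrix were followed in mouse hearts after abdominal sepsis. The set comprised 42 genes named by function. They encode small leucine-rich proteoglycans, elastic fibre and microfibril proteins, adhesive and matricellular proteins, and basement membrane proteins. The others encode proteins of cross-linking and collagen processing, metalloproteinases and their inhibitors, and 1 receptor of fibroblasts. A gene was measured where a probe set was paired with its symbol alone, and its value was the mean over such probe sets. By this rule 40 of the 42 were measured, through 78 probe sets, of 12393 genes in all. Fbn1 had no paired probe set, and Loxl2 lay only on a probe set shared by several genes. Ctgf was carried under its current symbol, Ccn2.

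Total RNA of 15 whole hearts was hybridised to oligonucleotide arrays, 1 heart per array, 48 hours after surgery, in 5 groups of 3. Polymicrobial sepsis followed an operation abbreviated CLP (caecal ligation and perforation): a tied and punctured caecum leaks gut contents into the abdomen. Sham mice had the abdomen opened and the caecum handled only. Every mouse received isoflurane, buprenorphine and saline, and, before the heart was taken, ketamine, xylazine and a carotid catheter for contractility measurements. Wild-type mice were C57/BL6 and formed a sham group and 2 CLP groups that the labels call Min Dep and Max Dep, without spelling the terms out. Knockout mice were congenic B6.129P2-Nos2tm1Lau/J, which lack the inducible nitric oxide synthase in every cell, and formed a sham and a CLP group. Ages do not appear among the labels.

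The wild-type table is in standardised units, in which each probe set has the same spread over the 9 arrays, so they carry no expression level and no fold change. On such values the mean of 3 arrays cannot differ from that of the other 6 by more than 2.0, or from that of 3 others by more than 2.31, before the scaling of each array. Knockout values behave as log differences whose base and reference are not given. The genotypes lie in separate tables from different array models, so genotype, table and array model cannot be told apart and levels were never compared between them. As each table is centred on its own arrays, values of Nos2 itself do not check the genotype labels. Knockout CLP replicate 1 lay between the other CLP columns in 76.0% of probe sets, against 32.8 to 34.4% for a sham column, and was left out of the tests. Wild-type sham replicate 1 stood apart in sex-linked genes, with Xist at 2.64 and Eif2s3y at -2.48, against at most -0.17 and at least -0.68 in the other 8 arrays. Since both tables are centred, whether the defining markers of heart cells were present could not be read from them. Nothing in the labels says more of how the hearts relate to each other than 1 code per heart, and p-values measure the spread between these hearts.

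The cardiac extracellular matrix is made mainly by fibroblasts, with smooth muscle, endothelial cells and cardiomyocytes adding the sheets of laminin, nidogen and perlecan on which they sit. Small proteoglycans coat and space collagen fibrils, elastic fibres give recoil, and matricellular proteins are deposited during repair. Metalloproteinases and ADAMTS enzymes cut these components, and TIMPs inhibit the enzymes. In whole-heart RNA, fewer cells of a type and less RNA per cell cannot be told apart.

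The first comparison asked how the members differed after CLP in wild-type hearts. The laminin chain gene Lamb1 and the elastic fibre gene Fbln2 fell, and none rose. Of the 40 members, 34 had a negative difference, with a median of -1.57 standardised units, against 49.2% of all genes and a median of 0.02. Past the adjusted threshold of 0.05 were 2 of 40 members, both lower, where 0.379% of all genes tested passed in that direction, 0.339% in the other and 0.718% in either (limma without moderation, Benjamini-Hochberg over 12393 genes). In 22 members every CLP array lay below every sham array, against a background of 6.11% of genes. In 1 member, Lamb2, every CLP array lay above every sham array, against 5.89%. At an unadjusted p under 0.05 were 28 of 40 members, against 18.6% of genes.

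**Figure D1:**
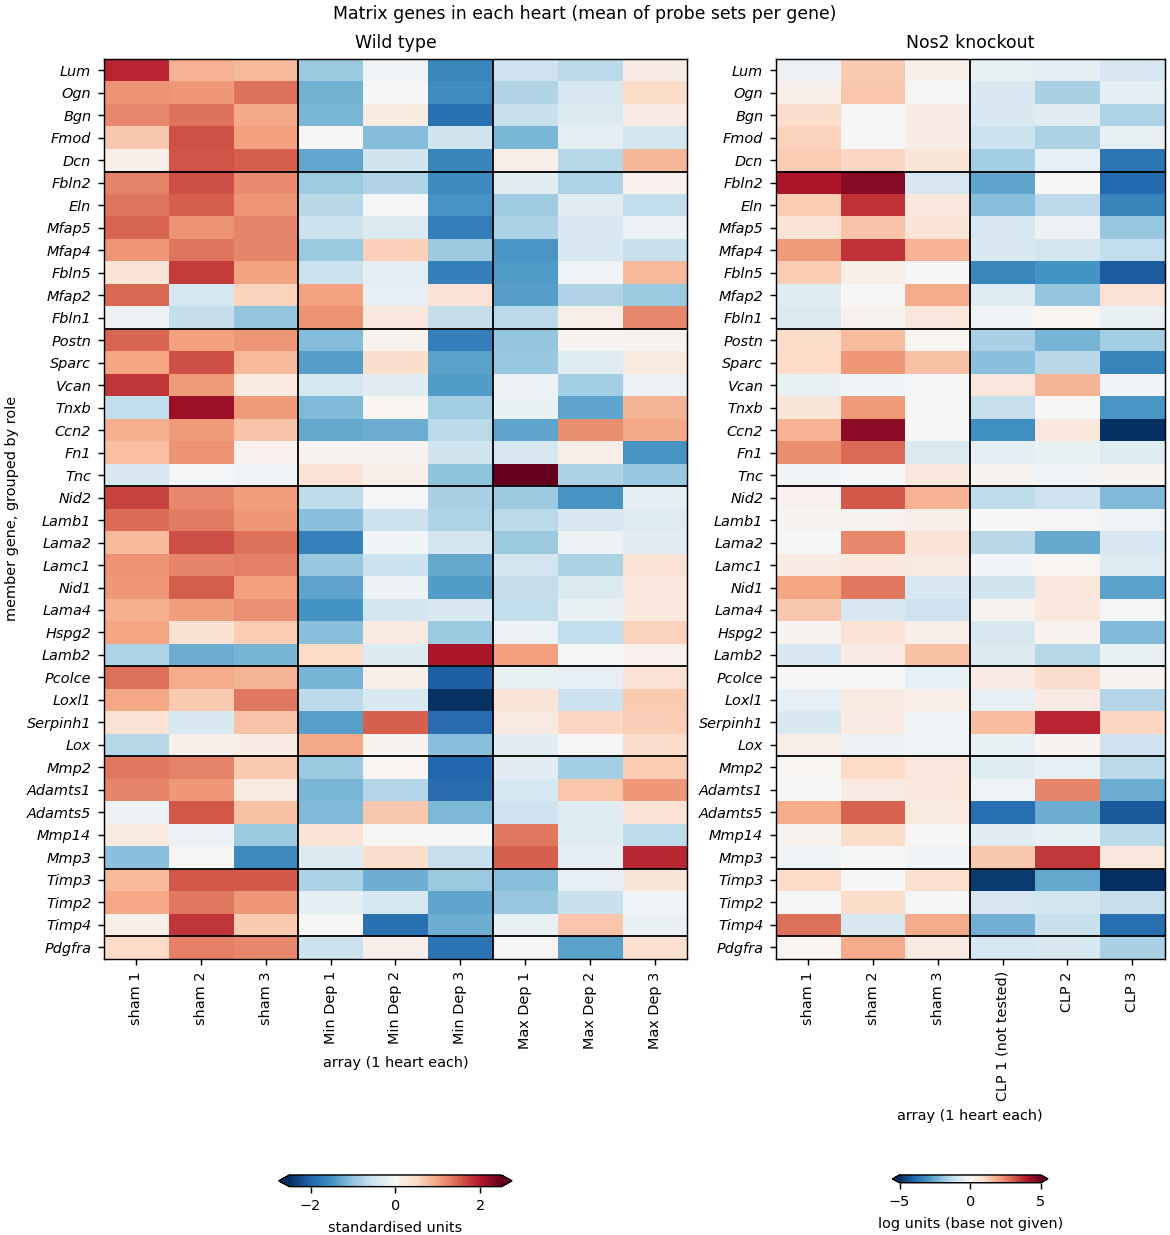
Value of each of the 40 members in each array, as colour, in standardised units for wild type (left) and log units of unknown base for the knockout (right); rows are genes grouped by role and columns are hearts. The 3 wild-type sham columns are red for most genes, with member means of 0.70 to 0.97, while 5 of the 6 CLP columns have more members below 0 than above, the exception being Max Dep replicate 3, with 14 of 40 below 0 and a mean of 0.18.

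The members did not lie equally low in every septic heart. Averaged over the 40 genes, sham hearts stood at 0.75, 0.97 and 0.70, Min Dep hearts at -0.64, -0.16 and -1.12, and Max Dep hearts at -0.37, -0.34 and 0.18. Min Dep replicate 3 held the lowest of the 9 values for 22 members and had 38 of them below 0. Max Dep replicate 3 had 14 members below 0 and Min Dep replicate 2 had 23, while the other 3 CLP hearts had 32 each. In the sham hearts 5 to 7 members were below 0.

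Basement membrane proteins held the gene with the smallest p. Lamb1 encodes a beta chain of laminin, the cross-shaped trimer that cells bind in the basement membrane. It stood at 1.40, 1.30 and 1.09 in sham hearts, at -1.04, -0.53 and -0.77 in Min Dep hearts and at -0.68, -0.41 and -0.33 in Max Dep hearts. Every septic heart lay below 0 and every sham heart above 1, with no overlap and a narrow spread within groups. Its CLP difference was -1.89 ± 0.14 (SE; adjusted p = 0.0276), and all 3 of its probe sets were lower, by -2.05 to -1.68. Between sham and CLP lay 94.9% of its variance over the 9 arrays.

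Lamc1, the gamma chain that joins most laminin trimers, was at 1.13, 1.23 and 1.25 in sham hearts, at -0.95, -0.53 and -1.27 in Min Dep and at -0.47, -0.79 and 0.36 in Max Dep hearts. The groups did not overlap, although Max Dep replicate 3 came closest to sham, and the difference was -1.81 ± 0.29 (adjusted p = 0.0543). Nid2 encodes a nidogen, which ties laminin to the collagen network of the basement membrane. Its sham values of 1.68, 1.20 and 1.04 lay above all of its Min Dep values (-0.63, -0.03 and -0.81) and Max Dep values (-0.90, -1.48 and -0.24). The difference of -1.99 ± 0.33 missed the threshold (adjusted p = 0.0573).

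Lamb2, the alternative beta chain found in mature vessel and muscle basement membranes, went the other way. It was at -0.78, -1.25 and -1.17 in sham hearts, at 0.47, -0.34 and 2.05 in Min Dep and at 1.03, -0.04 and 0.10 in Max Dep hearts. Sham hearts were lowest throughout, but the septic hearts were widely spread and the difference of 1.61 ± 0.56 did not pass (adjusted p = 0.206). The other 4 members of the group, Lama2, Lama4, Nid1 and the perlecan gene Hspg2, had differences of -1.86 to -1.0 with adjusted p from 0.0757 to 0.260. In all, 1 of 8 basement membrane genes fell and none rose, with a median of -1.80 and 7 of 8 negative.

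Elastic fibre and microfibril genes had a median of -1.83, and 1 of 7 fell. Fbln2 encodes fibulin-2, which binds elastic fibres and basement membranes. It was at 1.24, 1.61 and 1.19 in sham hearts, at -0.88, -0.75 and -1.59 in Min Dep hearts and at -0.26, -0.78 and 0.10 in Max Dep hearts. The groups did not overlap, Min Dep replicate 3 was lowest, and the CLP difference was -2.04 ± 0.27 (adjusted p = 0.0482). Eln, which encodes tropoelastin, the core of the elastic fibre, was at 1.34, 1.49 and 1.11 in sham hearts, at -0.70, -0.04 and -1.48 in Min Dep and at -0.89, -0.27 and -0.62 in Max Dep hearts. All CLP hearts were below all sham hearts, and the difference was -1.98 ± 0.33 (adjusted p = 0.0569).

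Among microfibril genes, Mfap4 was at 1.11, 1.34 and 1.23 in sham hearts, at -0.93, 0.60 and -0.90 in Min Dep and at -1.46, -0.40 and -0.55 in Max Dep hearts. Min Dep replicate 2 stood nearest to sham, without overlap (-1.83 ± 0.43, adjusted p = 0.104). Fbln5, whose product is required to assemble elastic fibres, was at 0.33, 1.75 and 1.00 in sham hearts, at -0.53, -0.22 and -1.70 in Min Dep and at -1.41, -0.10 and 0.81 in Max Dep hearts. Here Max Dep replicate 3 lay within the sham range and the difference of -1.55 ± 0.63 had an adjusted p of 0.263. Mfap5 differed by -1.93 ± 0.34 (adjusted p = 0.0623).

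Fbln1, a fibulin of microfibrils and basement membranes, had a positive difference of 0.83 ± 0.55 (adjusted p = 0.487). Its values were -0.15, -0.60 and -0.99 in sham hearts, 1.12, 0.27 and -0.60 in Min Dep and -0.68, 0.15 and 1.21 in Max Dep hearts, so that sham and CLP overlapped. Mfap2 was at 1.43, -0.44 and 0.57 in sham hearts and at 1.00, -0.21 and 0.37 in Min Dep hearts, but at -1.37, -0.76 and -0.92 in Max Dep hearts. Only the Max Dep hearts lay below every sham heart, and the difference over both CLP groups was -0.84 ± 0.47 (adjusted p = 0.414).

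The small leucine-rich proteoglycans were negative in 5 of 5 genes, with a median of -1.75, and 0 passed. Lum encodes lumican, which regulates the width and spacing of collagen fibrils. It was at 1.90, 0.87 and 0.82 in sham hearts, at -0.93, -0.09 and -1.64 in Min Dep and at -0.51, -0.68 and 0.19 in Max Dep hearts. The groups did not overlap and the difference was -1.81 ± 0.44 (adjusted p = 0.115). Dcn encodes decorin, which binds collagen and sequesters TGF-beta, and was at 0.13, 1.58 and 1.5 in sham hearts, at -1.29, -0.50 and -1.65 in Min Dep and at 0.16, -0.71 and 0.83 in Max Dep hearts. Sham replicate 1 lay among the Max Dep hearts, and the difference was -1.60 ± 0.52 (adjusted p = 0.183). Bgn, Fmod and Ogn, for biglycan, fibromodulin and osteoglycin, differed by -1.77 to -1.67, each without overlap, with adjusted p from 0.0842 to 0.135.

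Of the 7 adhesive and matricellular genes none passed, and 6 were negative, with a median of -1.29. Postn encodes periostin, which activated fibroblasts secrete during repair. It was at 1.46, 1.02 and 1.11 in sham hearts, at -1.09, 0.09 and -1.70 in Min Dep and at -0.97, 0.06 and 0.09 in Max Dep hearts. All CLP hearts lay below all sham hearts (-1.79 ± 0.46, adjusted p = 0.123). Sparc, for a collagen-binding matricellular protein, was at 0.98, 1.62 and 0.81 in sham hearts, at -1.38, 0.43 and -1.33 in Min Dep and at -0.94, -0.32 and 0.24 in Max Dep hearts. Its groups did not overlap either (-1.69 ± 0.52, adjusted p = 0.169).

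Tnc, the gene of tenascin-C, a glycoprotein that is scarce in the resting heart and deposited after injury, had no uniform direction. It was at -0.38, -0.04 and -0.10 in sham hearts, at 0.33, 0.15 and -1.01 in Min Dep and at 2.62, -0.79 and -0.95 in Max Dep hearts. A single heart, Max Dep replicate 1, stood far above the rest. The CLP difference was 0.23 ± 0.88 (adjusted p = 0.921), and it was -0.35 without that heart. The others, Fn1, Tnxb, Vcan and Ccn2, differed by -1.57 to -1.01 with adjusted p from 0.137 to 0.435, and only Vcan, for the proteoglycan versican, was free of overlap.

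Of the 4 genes for collagen processing and cross-linking 0 passed and 3 were negative, with a median of -0.90. Pcolce, whose product speeds the removal of the procollagen C-propeptide, was at 1.38, 0.92 and 0.84 in sham hearts, at -1.17, 0.12 and -2.04 in Min Dep and at -0.18, -0.20 and 0.36 in Max Dep hearts. Sham and CLP did not overlap (-1.56 ± 0.48, adjusted p = 0.168). The elastin cross-linking enzyme gene Loxl1 was at 0.97, 0.66 and 1.31 in sham hearts, at -0.66, -0.39 and -2.47 in Min Dep and at 0.33, -0.54 and 0.66 in Max Dep hearts. Max Dep replicate 3 reached the lowest sham value, and the difference was -1.49 ± 0.54 (adjusted p = 0.227).

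Lox, for lysyl oxidase, which cross-links collagen and elastin, was at -0.72, 0.13 and 0.19 in sham hearts, at 0.95, 0.06 and -1.05 in Min Dep and at -0.26, 0.00 and 0.44 in Max Dep hearts. The groups overlapped fully (0.16 ± 0.48, adjusted p = 0.903), and the sign turned without sham replicate 1 (-0.14) or Min Dep replicate 1 (-0.08). Serpinh1, for the collagen chaperone of the endoplasmic reticulum, differed by -0.30 ± 0.78. In this wild-type comparison the probe sets of Lox, Serpinh1 and Mmp14 disagreed in sign, the only 3 among 24 members with several probe sets.

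Among metalloproteinases the members parted. Mmp2, a gelatinase made by fibroblasts, was at 1.31, 1.24 and 0.66 in sham hearts, at -0.92, 0.05 and -1.97 in Min Dep and at -0.27, -0.84 and 0.64 in Max Dep hearts. Its highest CLP value, 0.64, lay just under the lowest sham value, and the difference was -1.62 ± 0.53 (adjusted p = 0.189). Mmp3, for stromelysin, which cuts proteoglycans and laminin, was at -1.04, 0.02 and -1.60 in sham hearts, at -0.34, 0.43 and -0.57 in Min Dep and at 1.5, -0.25 and 1.89 in Max Dep hearts. The highest values were in Max Dep replicates 1 and 3, but sham replicate 2 lay among the CLP hearts (1.31 ± 0.61, adjusted p = 0.322).

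Mmp14, a membrane-bound metalloproteinase that activates the proform of the Mmp2 enzyme, was at 0.25, -0.15 and -0.92 in sham hearts, at 0.35, 0.02 and -0.04 in Min Dep and at 1.32, -0.32 and -0.64 in Max Dep hearts. Sham and CLP overlapped (0.38 ± 0.50, adjusted p = 0.745). Adamts5, whose product cleaves versican and aggrecan, was at -0.13, 1.56 and 0.74 in sham hearts, at -1.11, 0.68 and -1.13 in Min Dep and at -0.52, -0.31 and 0.34 in Max Dep hearts, overlapping as well (-1.07 ± 0.58, adjusted p = 0.392). Of the 5 proteases none passed, with a median of -1.07 and 3 of 5 negative.

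All 3 TIMP genes were negative, with a median of -1.70, and 0 passed. Timp3 encodes the inhibitor that stays bound to the matrix. It was at 0.82, 1.55 and 1.53 in sham hearts, at -0.79, -1.22 and -0.93 in Min Dep and at -1.06, -0.21 and 0.30 in Max Dep hearts. No CLP heart reached the sham range, and the difference was -1.95 ± 0.34 (adjusted p = 0.0618), with its 4 probe sets at -2.09 to -1.79. Timp4, an inhibitor abundant in heart muscle, was at 0.15, 1.79 and 0.66 in sham hearts, at 0.00, -1.86 and -1.22 in Min Dep and at -0.18, 0.70 and -0.16 in Max Dep hearts. Max Dep replicate 2 overlapped with sham (-1.32 ± 0.56, adjusted p = 0.278), and Timp2 differed by -1.70 ± 0.31 (adjusted p = 0.0654) without overlap.

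Pdgfra, the PDGF receptor that marks cardiac fibroblasts, was at 0.49, 1.25 and 1.21 in sham hearts, at -0.53, 0.13 and -1.84 in Min Dep and at 0.03, -1.33 and 0.40 in Max Dep hearts. The groups just failed to touch, and the difference was -1.51 ± 0.58 (adjusted p = 0.247).

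These calls held by a small margin. With the probe sets tested singly, 11 members had at least 1 probe set past the threshold, all lower, where 2.36% of genes had one. The 11 were Eln, Fbln2, Lama4, Lamb1, Lamc1, Mfap5, Nid1, Nid2, Ogn, Timp2 and Timp3. A gene with more probe sets had more chances, and the 40 members had 78, against 20380 for 12393 genes. Count and share are therefore not like for like. With eBayes moderation 0 genes passed. That 0 says little about the calls, since eBayes found 0% of changed genes in simulated wild-type data. Without any 1 heart other than Min Dep replicate 2 no member passed. Without Min Dep replicate 2 there were 6, all lower, where 0.726% of genes passed as lower, namely Bgn, Eln, Fbln2, Lamb1, Mfap4 and Nid1. Without sham replicate 1, the heart that stood apart in sex-linked genes, the members' median was -1.67. A rough sign of RNA integrity, the 5' minus the 3' control probe sets, had group means that differed. This is a difference of standardised values, not a ratio of signals, averaged over Gapdh and Actb. These controls could disagree, as in Min Dep replicate 3 (Gapdh -1.30, Actb 0.19). Sham and septic hearts overlapped, as Max Dep replicate 2 (mean 0.53) lay above sham replicate 2 (mean 0.39). The mean of the controls was 0.90 ± 0.75 (SD, n = 3) over sham hearts, -0.19 ± 0.33 over Min Dep hearts and -0.71 ± 1.19 over Max Dep hearts. With that mean as a covariate the members' median was -1.72 and Lamb1 differed by -2.0, while 0 members passed (adjusted p = 0.106 for Lamb1, within 0.0257 to 0.106 over its alternatives).

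The regions upstream of 5 of these genes are shown, chosen after their values were seen among the members with a promoter in the RefSeq table used here. Lamb1 and Fbln2 fell, Timp3 was the most negative inhibitor gene in both genotypes without passing, and Lamb2 and Mmp3 had the most positive wild-type differences, which did not pass either. Each sequence is the 250 bases before the RefSeq start on the plus strand of GRCm38.p6, at chr12:31265043-31265292 for Lamb1, chr6:91212514-91212763 for Fbln2, chr10:86300162-86300411 for Timp3, chr9:108479612-108479861 for Lamb2 and chr9:7445572-7445821 for Mmp3. Capitals mark matches to 4 motifs on either strand: the TATA box (TATAAA), the CCAAT box (CCAAT), the GC box (GGGCGG, or CCGCCC on the other strand) and the AP-1 motif (TGANTCA).
Lamb1: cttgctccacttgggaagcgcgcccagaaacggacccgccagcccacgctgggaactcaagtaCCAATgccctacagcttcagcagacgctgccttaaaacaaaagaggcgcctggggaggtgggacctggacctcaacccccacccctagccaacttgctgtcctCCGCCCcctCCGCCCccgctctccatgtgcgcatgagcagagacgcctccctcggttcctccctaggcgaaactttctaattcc
Fbln2: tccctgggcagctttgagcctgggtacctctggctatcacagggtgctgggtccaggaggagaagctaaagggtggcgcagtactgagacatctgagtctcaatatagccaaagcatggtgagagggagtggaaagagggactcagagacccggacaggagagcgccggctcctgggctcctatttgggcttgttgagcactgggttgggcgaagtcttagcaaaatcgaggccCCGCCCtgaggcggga
Timp3: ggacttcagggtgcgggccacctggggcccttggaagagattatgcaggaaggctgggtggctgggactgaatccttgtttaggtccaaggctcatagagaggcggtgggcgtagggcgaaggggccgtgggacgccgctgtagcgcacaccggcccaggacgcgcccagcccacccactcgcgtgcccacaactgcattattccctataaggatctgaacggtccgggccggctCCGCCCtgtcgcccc
Lamb2: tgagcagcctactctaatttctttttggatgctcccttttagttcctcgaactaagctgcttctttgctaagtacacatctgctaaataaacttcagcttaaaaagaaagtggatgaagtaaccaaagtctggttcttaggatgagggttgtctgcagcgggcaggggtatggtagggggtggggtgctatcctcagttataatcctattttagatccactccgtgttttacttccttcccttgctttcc
Mmp3: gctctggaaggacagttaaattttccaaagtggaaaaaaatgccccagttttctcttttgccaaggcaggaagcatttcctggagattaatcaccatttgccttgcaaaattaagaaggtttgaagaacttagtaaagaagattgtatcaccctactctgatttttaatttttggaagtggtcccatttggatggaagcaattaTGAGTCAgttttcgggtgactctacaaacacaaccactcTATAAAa

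The window of Lamb1 held 2 GC boxes and 1 CCAAT box, at 62.0% G and C, and those of Fbln2 and Timp3 held 1 GC box each, at 58.8% and 65.6%. The window of Mmp3 was poorer in G and C, at 37.6%, and held 1 TATA box, starting 7 bases before the start, and 1 AP-1 motif, starting 46 bases before it. None of the letters searched was found in the window of Lamb2, at 43.6% G and C. Of the 26 measured members with a promoter in the RefSeq table, 16 had a GC box, 7 a CCAAT box, 5 a TATA box and 2 an AP-1 motif, the other being Tnxb. Over all 32851 windows of this length, counted singly, the shares were 32.7%, 33.8%, 12.4% and 6.75%. Some members had several windows and were counted if any of them matched, so counts and shares are not like for like. No motif overlapped another by its letters in these 5 windows, and a match describes the sequence only.

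Each septic group was then set against the same 3 sham hearts. In Min Dep hearts, Lamb1 fell by 2.04 ± 0.17 (adjusted p = 0.0425), the only member past the threshold, where 0.0403% of genes fell, 0.0161% rose and 0.0565% passed in either direction. The median difference of the members was -1.87, against 0.12 for all genes, and 35 of 40 were negative, against 45.5%. In 30 members all Min Dep hearts lay below all sham hearts, against 12.4% of genes, and in 1, Lamb2, above them, against 10.9%. Fbln2 (-2.42 ± 0.32, adjusted p = 0.0666), Lamc1 (-2.12 ± 0.33, adjusted p = 0.0748) and Timp3 (-2.28 ± 0.39, adjusted p = 0.0788) followed.

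In Max Dep hearts Lamb1 again was the only member to pass, at -1.74 ± 0.17 (adjusted p = 0.0333), where 0.161% of genes fell, 0.29% rose and 0.452% passed in either direction. The members' median was -1.27, against -0.09 for all genes, and 33 of 40 were negative, against 53.2%. In 23 members all Max Dep hearts lay below sham, against 12.7% of genes, and in 1, Lamb2, above, against 13.8%. The next smallest p-values belonged to Nid2 (-2.18 ± 0.38, adjusted p = 0.0858), Fbln2 (-1.66 ± 0.32, adjusted p = 0.0965) and Eln (-1.91 ± 0.38, adjusted p = 0.104). For both septic groups Lamb1 lost its call when the group was fitted with sham alone, at adjusted p = 0.150 for Min Dep and 0.0880 for Max Dep, within 0.0363 to 0.160 and 0.0377 to 0.149 over the alternatives. It also lost the call in both groups without any 1 heart other than Min Dep replicate 2. With the probe sets tested singly Lamb1 kept its call in Max Dep hearts (adjusted p = 0.0377). In Min Dep hearts it did not (adjusted p = 0.0635), while probe sets of Fbln2 (adjusted p = 0.0487) and Timp3 (adjusted p = 0.0475) passed, lower, where 0.637% of genes did. Here too a gene with more probe sets had more chances to pass.

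**Figure D2:**
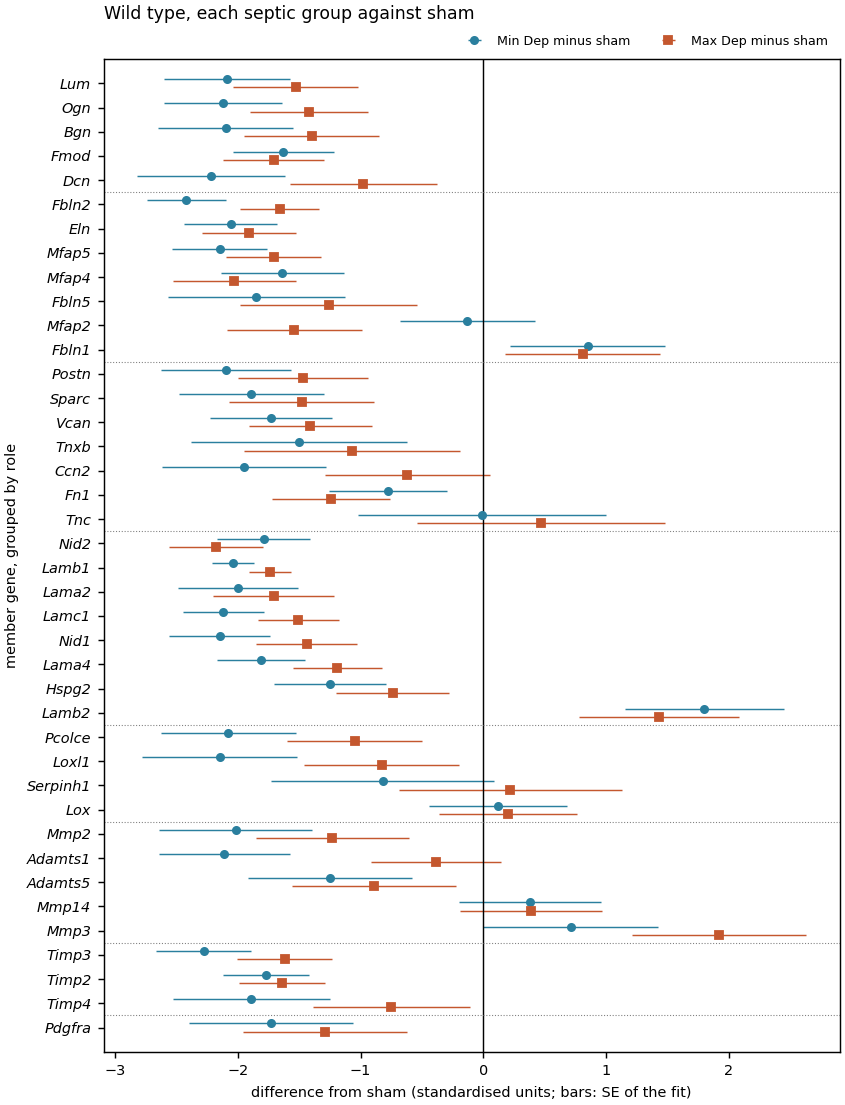
Difference of each member from the shared sham hearts, in standardised units, for Min Dep (circles) and Max Dep (squares) hearts, with bars of 1 SE; genes are grouped by role. Of the 40 Min Dep points 35 lie left of 0 (median -1.87), as do 33 of the 40 Max Dep points (median -1.27), and Lamb2, Mmp3, Fbln1, Mmp14 and Lox lie right of 0 in both groups, Mmp3 in Max Dep hearts furthest, at 1.92.

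Directly compared, Max Dep and Min Dep hearts differed in 0 of 12393 genes, and so in 0 members (limma without moderation). An unadjusted p under 0.05 was found for 1216 genes, or 9.81%. With eBayes moderation 0 passed too, which says little, as eBayes found 0% of changed genes in simulated wild-type data. At an unadjusted p under 0.05 were 2 of 40 members, near the background. Of the members, 33 were higher and 7 lower in Max Dep hearts, where 53.3% of genes were lower, with a median of 0.49 against -0.08 for all genes. In 1 member the groups did not overlap with Max Dep higher, against 7.89% of genes, and in 1 with Max Dep lower, against 7.43%.

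Adamts1, which encodes a protease of versican and other proteoglycans, was at -1.15, -0.74 and -1.91 in Min Dep hearts and at -0.43, 0.69 and 1.09 in Max Dep hearts, with sham at 1.23, 1.09 and 0.22. All Max Dep hearts were above all Min Dep hearts, and 2 of them lay in the sham range. The difference between the septic groups was 1.72 ± 0.53 (95% interval 0.41 to 3.02, adjusted p = 0.441). Mfap2, described above, was the gene without overlap in the other direction, at -1.40 ± 0.55 (95% interval -2.74 to -0.07, adjusted p = 0.496).

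Fbln2 differed by 0.76 ± 0.32 (adjusted p = 0.513) and Loxl1 by 1.32 ± 0.63 (adjusted p = 0.540) between the septic groups. For Lamb1 the 95% interval of the difference, 0.31 ± 0.17, ran from -0.10 to 0.71. By role, all 4 cross-linking and collagen processing genes, all 5 metalloproteinases and all 3 TIMPs had the higher mean in Max Dep hearts. So did 4 of 5 small proteoglycans, 6 of 8 basement membrane genes, 6 of 7 adhesive genes and 4 of 7 elastic fibre genes. None of these differences passed. Without Min Dep replicate 3 the members' median was 0.25 in place of 0.49, and without Max Dep replicate 3 it was 0.28.

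CLP was compared with sham in Nos2 knockout hearts on 3 sham and 2 CLP arrays. No gene passed (limma with eBayes, 0 of 12393; 1476 at an unadjusted p under 0.05, or 11.9%, and 0 without moderation). At an unadjusted p under 0.05 were 21 of 40 members. The members' median difference was -1.47 log units of unknown base, against 0.03 for all genes, and 35 of 40 were negative, against 48.5%. In 22 members both CLP arrays lay below all sham arrays, against 14.0% of genes, and in 3, Pcolce, Serpinh1 and Mmp3, above them, against 15.0%. With all 6 arrays 295 genes and 6 members passed, all 6 lower, where 1.44% of genes passed as lower: Fbln5, Adamts5, Sparc, Mfap4, Postn and Timp3. That fit counts the column left out as a separate heart, although it mostly lay between the other CLP columns. Its SEs and p-values may therefore be too small, and its calls are not taken as results.

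The knockout values, unlike the wild-type ones, show which members differed by much and which by little. Fbln5 was at 1.28, 0.34 and 0.00 in sham hearts and at -2.99 and -4.16 after CLP, with the column left out at -3.26. The groups lay far apart, and the difference was -4.11 ± 0.60 (adjusted p = 0.0873). With all 6 arrays it was -4.01 ± 0.47 (adjusted p = 0.0266), under the limit just given for that fit. Adamts5 was at 1.85, 2.96 and 0.49 in sham hearts and at -2.44 and -4.19 after CLP, with -3.78 in the column left out. Its difference of -5.08 ± 0.87 (adjusted p = 0.105) was equalled by that of Timp3 and exceeded by no other member.

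Sparc was at 0.99, 2.16 and 1.47 in sham hearts and at -1.39 and -3.35 after CLP, with -2.10 in the column left out (-3.91 ± 0.70, adjusted p = 0.107). Mfap4 was at 2.11, 3.63 and 1.72 in sham hearts and at -0.91 and -1.24 after CLP, with -0.78 in the column left out (-3.56 ± 0.65, adjusted p = 0.109). In both genes every CLP column was below every sham column. Timp3 was at 0.97, 0.00 and 0.79 in sham hearts and at -2.54 and -6.45 after CLP, with the CLP columns far from sham and from each other (-5.08 ± 1.10, adjusted p = 0.148). Postn differed by -2.86 ± 0.57 (adjusted p = 0.128) and Eln by -4.10 ± 1.04 (adjusted p = 0.197).

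Lamb1, first by p in wild type, was at 0.14, 0.16 and 0.24 in knockout sham hearts and at -0.07 and -0.18 after CLP. The groups did not overlap, but the difference was small, at -0.31 ± 0.39 (adjusted p = 0.843). Its probe sets differed by 0.04, -0.07 and -0.89 in the knockout. The moderated SE exceeded the spread of the gene itself, which had an SD of 0.05 in sham and 0.07 after CLP. Fbln2 was at 4.05, 4.54 and -0.85 in sham hearts and at 0.00 and -3.89 after CLP. One sham heart lay among the CLP hearts, and the difference of -4.52 ± 1.86 had an adjusted p of 0.415. Ccn2, for a growth factor-induced matricellular protein, was as scattered, at 1.73, 4.49 and 0.00 against 0.58 and -5.18 (-4.37 ± 1.91, adjusted p = 0.449).

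Members with positive differences in the knockout were Serpinh1 (2.59 ± 0.86, adjusted p = 0.303), Mmp3 (2.17 ± 0.85, adjusted p = 0.392), Vcan (0.99 ± 0.62), Pcolce (0.66 ± 0.45) and Lama4 (0.37 ± 0.79). Serpinh1 was at -0.76, 0.40 and -0.16 in sham hearts and at 3.81 and 1.03 after CLP. Mmp3 was at -0.22, 0.00 and -0.16 in sham hearts and at 3.52 and 0.56 after CLP. In both, 1 CLP heart carried most of the difference. By role the knockout medians were -3.71 for TIMPs, -3.56 for elastic fibre genes, -2.36 for adhesive genes, -1.49 for small proteoglycans, -1.34 for basement membrane genes, -1.20 for metalloproteinases and 0.12 for cross-linking genes, with Pdgfra at -1.99.

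**Figure D3:**
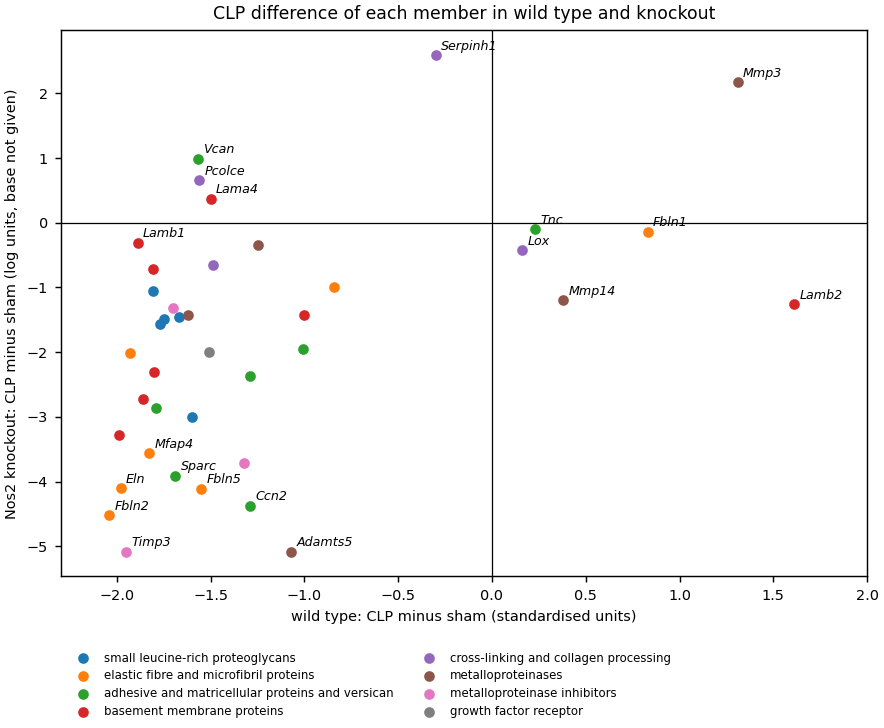
CLP difference of each member in wild type (horizontal, standardised units) and in Nos2 knockout (vertical, log units of unknown base), coloured by role, with 19 genes named. Most points, 30 of 40, lie below 0 on both axes, and Mmp3 is the only one above 0 on both; the axes have different scales, so distances are not comparable between them.

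Side by side, with no control hearts in common, the tables had 30 of 40 members negative in both, against 26.4% of all genes. Mmp3 alone was positive in both (28.7% of genes). Vcan, Lama4, Serpinh1 and Pcolce were negative in wild type and positive in the knockout (22.8%), and Lamb2, Fbln1, Tnc, Lox and Mmp14 the reverse (22.1%). Of these, Vcan, Lama4, Fbln1 and Lox had knockout probe sets of opposed sign, so the sign of their mean is uncertain. For Fbln1 the knockout probe sets differed by 1.18 and -1.46, and for Lama4 by -0.30 and 1.04. In 17 members every CLP array lay below every sham array in both genotypes, against 1.39% of genes. They comprised 4 of 5 small proteoglycans, 3 of 7 elastic fibre genes, 2 of 7 adhesive genes, 4 of 8 basement membrane genes, Pdgfra, 1 of 5 metalloproteinases and 2 of 3 TIMPs. Whether the CLP difference itself differs between genotypes was not tested, because the tables have different scales.

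Other matrix genes, outside the 40, were taken in lists by function. Over all genes in wild-type CLP hearts, 0.379% passed as lower, 0.339% passed as higher and 49.2% had a negative difference. Of 55 other glycoproteins and proteoglycans 1 fell in wild-type CLP hearts, the matricellular gene Ccn3 (-2.04 ± 0.22, adjusted p = 0.0307), and 41 were negative, with a median of -0.94. Its neighbour in p was Ltbp4, which tethers latent TGF-beta (-2.05 ± 0.30, adjusted p = 0.0543), at -4.91 ± 0.54 log units in the knockout. Of 21 collagen chains 0 passed and 20 were negative (median -1.21). Of 19 genes of TGF-beta signalling 1 fell, the repressor Ski (-1.87 ± 0.23, adjusted p = 0.0392), and 16 were negative (median -0.42).

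Of 30 other proteases and inhibitors 0 passed (median -0.52, 19 negative), with the membrane inhibitor Reck at -1.85 ± 0.41 (adjusted p = 0.0959). The lists of 19 integrins and matrix receptors (median -0.31, 13 negative) and 16 growth factors and receptors of fibroblasts (median -0.08, 8 negative) had 0 passing as well. Of 15 genes of collagen hydroxylation and other cross-linking 0 passed (median -0.71, 10 negative), with P4hb, a subunit of prolyl hydroxylase, at 1.92 ± 0.39 (adjusted p = 0.0806). In the knockout these lists had medians of -0.25 for other glycoproteins, -1.10 for collagens, -0.42 for TGF-beta signalling, -0.07 for other proteases, 0.14 for integrins, 0.20 for growth factors and 0.21 for hydroxylation, with 0 genes passing.

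Markers of heart cell types are given beside the members, to be read against the same shares over all genes. The marker lists are not separate from the lists above. Col1a1, Col1a2, Col3a1, Dpt and Ddr2 (fibroblast), Pdgfrb and Cspg4 (smooth muscle and pericyte), and Eng and Vwf (endothelial) stand in both. Of 17 fibroblast markers that are not members 15 were negative in wild-type CLP hearts and 0 passed (median -1.21). Their summed value was 9.7 to 12.8 in sham, -18.1 to 8.1 in Min Dep and -7.0 to 2.3 in Max Dep hearts. In knockout sham and CLP hearts the sums were 0.4 to 4.1 and -14.5 to -4.5. Yet only 9 of the 17 were negative in the knockout and 8 were positive, where 48.5% of genes were negative. Their knockout median was -0.26, with differences from -4.72 to 1.21. Of 12 smooth muscle and pericyte markers 12 were negative in wild type and 0 passed (median -1.64). Their sums were 8.7 to 16 in sham, -12.5 to 0.6 in Min Dep and -8.4 to 3.1 in Max Dep hearts. In the knockout 12 of 12 were negative and 0 passed (median -2.05). The knockout sums were 7.3 to 13.9 in sham hearts and -12.2 and -16.9 in the tested CLP hearts. Endothelial markers were split in wild type (6 of 12 negative, median 0.31) and mostly negative in the knockout (11 of 12, median -2.77).

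Cardiomyocyte markers had a median of -0.43 in wild type (11 of 14 negative, 0 passing) and -0.30 in the knockout. Macrophage and monocyte markers went the other way, 16 of 16 positive with Tyrobp and Fcer1g rising (median 1.58), and sums of -21.6 to -7.0 in sham, -2.4 to 10.1 in Min Dep and 5.9 to 18.3 in Max Dep hearts. Neutrophil markers (8 of 10 positive, median 1.25, with S100a8 and S100a9 rising) did likewise, and adipocyte (7 of 7 negative, median -1.54) and mesothelium markers (4 of 6 negative, median -0.72) had 0 passing. The part of these cell types in the members' values was not tested.

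**Figure D4:**
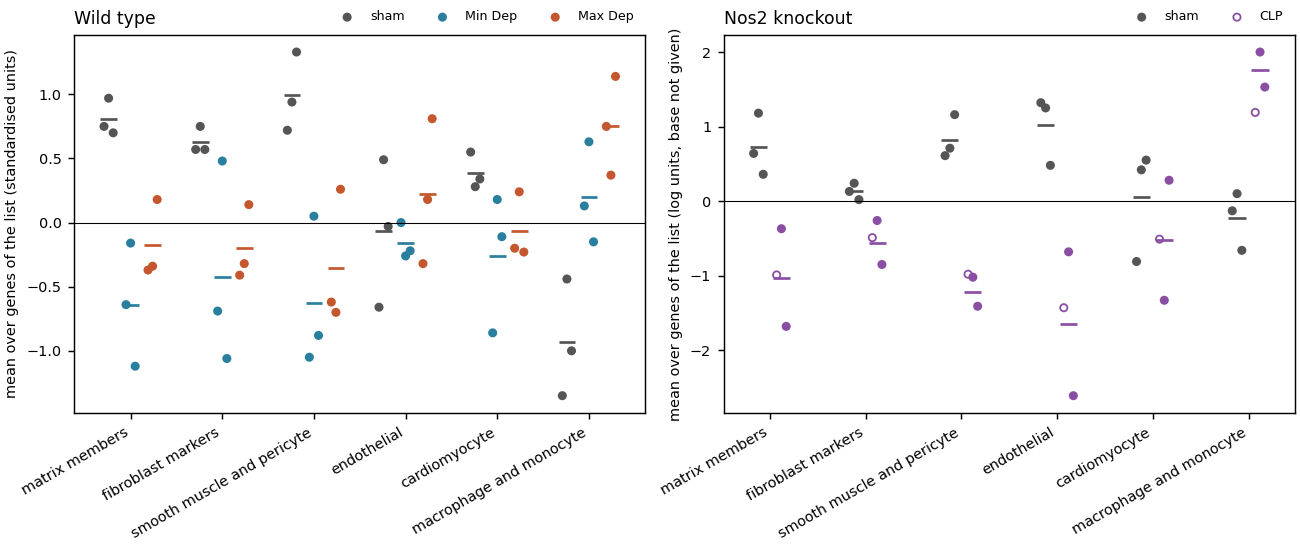
Mean over the genes of 6 lists in each heart (points) with group means (bars), in standardised units for wild type (left) and log units of unknown base for the knockout (right); the open point is the knockout CLP column left out of tests and mean. By these means matrix members, fibroblast markers and smooth muscle markers lie lower in every CLP heart than in every sham heart of the same genotype, and macrophage markers lie higher.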

How the data were processed

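The 9 wild-type and the 6 knockout arrays came as 2 separate value tables with 22690 probe sets each. Which programs made them is a point not given in the sources used here. Both tables hold a score as the authors deposited it: a standardised one in wild type, where after undoing a linear step per array every probe set had a mean of 0 and an SD of 1.0, and one that behaves as a log difference in the knockout, from -7.78 to 8.18. The depth behind each value is unknown, no intensities or background were used, and precision is limited by how many arrays there are.

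After leaving out 64 control probe sets, 22626 remained, of which the platform annotation pairs 20380 with 1 symbol, 691 with several and 1555 with none. Probe sets with 1 symbol were averaged per gene. Groups follow the titles of the samples. Replicate numbers are in accession order and pair nothing. The 9 wild-type arrays entered 1 linear fit (limma 3.58.1, R 4.3.3) on 6 residual degrees of freedom. It was without moderation, since probe sets of equal SD make a shared variance prior unsuitable. Means over several probe sets need not keep that SD. The knockout was fitted with eBayes on 5 arrays. The column left out correlated at 0.847 with the mean of the other CLP columns, which correlated at 0.21 with each other, and its SD was 0.683 against 0.978 to 1.089. P-values were adjusted by Benjamini-Hochberg over all genes, with a threshold of 0.05.

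Wild-type data of 12393 genes were simulated with every row scaled to the same SD, which means over several probe sets need not have. The unmoderated test found 30%, 90%, 98% and 100% of genes changed by 4, 6, 8 and 10 residual SDs and made 6 false calls. In the same data eBayes found 0% at each size. The knockout test found 0%, 28%, 54% and 72% of genes changed by 2, 3, 4 and 6 log units and made 4 false calls.

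The members and the other lists were chosen with earlier results of these data known, so their direction is a description. Values per heart are given for members past the threshold, for the 6 with the smallest p in the wild-type CLP comparison and the 4 in each other comparison, and in each role for the most negative and the most positive member and any against the sign of its role. Of the other lists, genes past the threshold and the leading ones by p are named. Promoter sequences are those of RefSeq on GRCm38.p6, found for 26 measured members by symbol. Alternatives were eBayes or its absence, single probe sets, other array scalings, a covariate from the 5' and 3' control probe sets, only the groups compared, all 6 knockout arrays, and leaving out each heart.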

Additional observations from a re-analysis of the deposited data

Results flagged for a closer look

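A pair of results met simple rules. In Tnc, Max Dep replicate 1 was at 2.62 and the next of the 6 wild-type CLP hearts at 0.33, a gap of 0.631 of the whole range. This exceeds the value that chance passes in about 1 in 20 groups, and 40 members were examined. Pcolce lay lower in every wild-type CLP heart (-1.56) and higher in both tested knockout CLP hearts (0.66) than in the sham hearts of the same genotype. Over all genes 6.11% lay lower without overlap in wild type and 15.0% lay higher without overlap in the knockout. The share of genes doing both was not counted, so how unusual Pcolce is cannot be said. This opposition was not tested, since the tables have different scales.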

How the results depend on the processing

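No paired analysis was possible because the labels give the hearts codes and no shared replicate numbers. For wild-type CLP against sham the 89 genes past the threshold became 0 with eBayes moderation, 481 with every probe set tested, 179 with the array standardisation undone, 1 with the 5' and 3' controls as a covariate, and 0 to 186 with 1 heart left out. The 2 members became 0, 11, 3, 0 and 0 to 6, in that order. The eBayes counts of 0 here and below say little, since eBayes found 0% of changed genes in simulated wild-type data. For Max Dep against sham 56 genes became 0, 210, 47 and 0, 7 with only the groups compared, and 0 to 26 with 1 heart left out, and the 1 member became 0, 1, 1, 0, 0 and 0 to 1. For Min Dep against sham 7 genes became 0, 105, 27, 2, 1 and 0 to 68, and the 1 member became 0, 2, 1, 0, 0 and 0 to 1. Undoing the standardisation turned the Min Dep split of 2 higher and 5 lower into 13 and 14, and moved the median of all genes from 0.12 to 0.27, with the members at -1.60. For Max Dep against Min Dep it gave 2 genes and moved that median from -0.08 to -0.28, and 1 heart left out gave 0 to 1 genes and 0 members. In the knockout all 6 arrays gave 295 genes and 6 members, and 0 of each with 1 heart left out. Why the counts moved was not tested.

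The members' median difference kept its sign throughout: -1.72 to -1.39 with 1 heart left out for wild-type CLP, -1.61 to -1.16 for Max Dep, -2.14 to -1.59 for Min Dep, 0.25 to 0.79 for Max Dep against Min Dep and -1.94 to -1.21 in the knockout. With single probe sets, each named member was followed by its probe set of smallest p. By that rule all kept their direction in the alternatives run except Tnc and Lox. Other probe sets went against the gene mean in wild-type CLP for Lox (-0.53) and Mmp14 (-0.35). Tnc (-0.35 to 0.54 with 1 heart left out) turned to -0.35 without Max Dep replicate 1. Lox (-0.14 to 0.42) turned to -0.14 without sham replicate 1 and -0.08 without Min Dep replicate 1. Over the alternatives for named members, by the same rule, 393 values stayed on the same side of the threshold, 43 lost a call, 12 gained one and 3 turned. Standardised units hide the size of wild-type changes, 3 hearts a group leave wide intervals, and genotype cannot be told apart from array model.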
